A study of Mus musculus with 4 samples.

Results

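The Hox genes of fetal mouse leg muscle were read cell type by cell type from single-cell transcripts. The members were taken by name, as every symbol of the feature table made of Hox, a cluster letter from a to d and a number, which gave 39 of 32285 features: 11 of the *Hoxa* cluster, 10 of *Hoxb*, 9 of *Hoxc* and 9 of *Hoxd*. Leg muscles of E18.5 fetuses of a single litter were dissociated with trypsin and sequenced with the Chromium Single Cell 3' v3 chemistry, in 2 wild-type (WT) libraries and 2 libraries of knockout (KO) fetuses that lack the long non-coding RNA *SYISL*. All 4 libraries share the tissue, the age and the litter. The leg muscles were taken from each fetus separately, per the study's methods, but whether a library holds 1 fetus is not stated, and the p-values below measure the spread between these libraries. No feature carried the name *SYISL*, so the knockout itself was not read here.

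Hox genes encode homeodomain transcription factors that give cells their position along the body axis and, in the limb, along its length. They lie in 4 clusters, and the order of the genes along a cluster follows the order in which they are expressed along the axis: low-numbered (anterior) genes toward the head, high-numbered (posterior) genes toward the tail and the limb tip. In the limb bud the posterior *Hoxa* and *Hoxd* genes pattern upper limb, lower limb and hand or foot, whereas the *Hoxc* genes from *Hoxc9* on mark the hindlimb. The cells of a limb muscle come from different places: connective tissue, tendon and cartilage from lateral plate mesoderm, muscle and much of the endothelium from somites, Schwann cells from the neural crest, and blood cells from blood-forming organs.

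By the GENCODE M21 annotation of GRCm38, which matched all 39 members, *Hoxa* spans chr6:52155590-52260880, *Hoxb* chr11:96194316-96368256, *Hoxc* chr15:102921103-103036852 and *Hoxd* chr2:74668310-74765142. The run from *Hoxb9* to *Hoxb5*, which sets endothelial- and glial-like cells apart below, takes up 34.7 kb of the *Hoxb* cluster (chr11:96271457-96306121). To show what the promoters of such genes look like, the 250 bases before the RefSeq start (GRCm38.p6) are printed for 3 genes on which the contrasts below turn. They are *Hoxa10* (the highest gene of FAP-like cells, chr6:52240855-52241104, minus strand), *Hoxb8* (a gene of endothelial- and glial-like cells, chr11:96281655-96281904, plus strand) and *Hoxd8* (the highest gene of endothelial-like cells, chr2:74704365-74704614, plus strand). Each is printed 5′ to 3′ on the gene's strand with CpG dinucleotides in capitals. RefSeq lists a second start for *Hoxa10*.
Hoxa10: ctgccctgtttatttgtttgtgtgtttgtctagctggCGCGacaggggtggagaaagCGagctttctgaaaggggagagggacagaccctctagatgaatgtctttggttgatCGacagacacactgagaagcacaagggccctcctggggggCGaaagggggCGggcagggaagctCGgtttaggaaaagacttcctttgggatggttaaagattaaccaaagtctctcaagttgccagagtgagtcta
Hoxb8: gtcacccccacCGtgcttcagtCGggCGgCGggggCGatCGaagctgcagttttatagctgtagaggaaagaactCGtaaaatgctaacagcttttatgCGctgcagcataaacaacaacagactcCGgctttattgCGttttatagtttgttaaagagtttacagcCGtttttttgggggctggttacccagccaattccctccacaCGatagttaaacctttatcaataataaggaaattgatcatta
Hoxd8: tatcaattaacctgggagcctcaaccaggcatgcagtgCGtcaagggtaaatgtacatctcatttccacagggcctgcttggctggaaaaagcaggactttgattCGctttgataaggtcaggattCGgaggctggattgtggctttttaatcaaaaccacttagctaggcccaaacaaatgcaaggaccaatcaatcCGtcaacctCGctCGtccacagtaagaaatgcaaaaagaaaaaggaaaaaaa
Sequences were at hand for 24 starts of 22 of the 39 genes. These held a median of 12.5 CpG in 250 bases, against 6 over all 32851 promoters, and the printed ones hold 7, 12 and 6. The word CCAAT (or ATTGG on the other strand) occurred in 14 of the 24 against 33.8% of all promoters and is present upstream of *Hoxb8* and *Hoxd8*. The word TATAAA (or TTTATA) occurred in 4 against 12.4% of all promoters, the one of *Hoxb8* among them, and TGATTNAT (or ATNAATCA), a word that Hox and Pbx proteins bind together, in 2 against 2.82%. The motifs do not contain one another, and a match is a description of the letters only.

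The libraries held 9528 to 11670 cells as deposited, and 8177 to 10461 after filtering, with medians of 9118 to 11427 UMIs (unique molecular identifiers, each 1 captured transcript) per cell. Hox genes and the long non-coding RNAs of their clusters were left out of the genes used for clustering, so that they took no part in forming the cell types. Clusters were named from marker lists (for example 5434 to 6112 CPM, the UMIs of a gene or list per 1000000 UMIs of the class, for 7 endothelial markers in endothelial-like cells, against 85.0 to 109 in connective tissue cells, named FAP-like below). The FAP-like name rests on the level of 10 markers, which are not particular to these cells. Tenocyte-like cells held 35975 to 40353 CPM of them and 5143 to 6222 of their own 6 markers, and chondrocyte-like cells 16036 to 18478 of them and 9263 to 18977 of their own 7. The glial-like class also held 10249 to 11259.8 CPM of the 10 connective tissue markers, against 25928 to 29834 in the connective tissue cells themselves, and its own 8 markers gave 4352 to 6356. Part of this sat in 1 mixed sub-cluster in each of the endothelial-, glial- and smooth muscle or pericyte-like classes (131, 116 and 115 cells), which were removed in a further run. KO replicate 2 held 131038 UMIs of *Xist*, which coats the inactive X in female cells, and each other library at most 5, so that a difference carried by that library alone cannot be told apart from the sex of its fetuses. The 4 libraries shared 124 cell barcodes among them.

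All named non-blood classes carried Hox transcripts, and the blood classes held few. Summed over the 39 genes, the mean over the 4 libraries was 351 ± 7.63 CPM (SD, n = 4) in smooth muscle or pericyte-like cells, 324 ± 32.0 in endothelial-like cells, 282 ± 13.3 in FAP-like cells (fibro-adipogenic progenitors, the resident connective tissue cells), 270 ± 24.8 in chondrocyte-like, 234 ± 7.77 in myogenic-like, 232 ± 11.3 in tenocyte-like and 163 ± 21.7 in glial-like cells. Macrophage-like cells gave 8.44 ± 1.68 CPM, from 89 Hox UMIs of 10683954, and mast-like cells 21.5 ± 9.52. Neutrophil-like cells (181) gave 8 Hox UMIs in all and lymphoid-like cells (64) gave 17, of which 13 came from WT replicate 2. Neighbours in this order overlapped between libraries except that all chondrocyte-like values lay above the myogenic-like ones, the glial-like values below those of tenocyte-like cells, and the macrophage-like values below the mast-like ones, both far below the rest. CPM here counts captured 3′ ends and is not divided by gene length, so an order of genes within a class is an order of captured ends. Fewer expressing cells and less RNA per cell cannot be told apart in these sums.

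In single cells, with each cell thinned to 2000 UMIs, a UMI of any Hox gene was found in 42.8% of FAP-like cells (7636 of 17861; exact Clopper-Pearson 95% interval 42.0% to 43.5%), 46.8% of endothelial-like (614 of 1312; 44.1% to 49.5%), 36.9% of myogenic-like (2473 of 6708; 35.7% to 38.0%) and 25.6% of glial-like cells (469 of 1835; 23.6% to 27.6%). In macrophage-like cells, of nearly the same depth (median 10494 UMIs against 10421 in FAP-like cells), it was 1.36% (13 of 953, 0.728% to 2.32%). Whether this share is background was not tested. Without thinning the shares were 89.1%, 86.5%, 82.2%, 69.8% and 8.47%. Thinning left out 30 FAP-like, 17 endothelial-like, 14 myogenic-like, 3 glial-like and 3 macrophage-like cells. The intervals cover counting error only.

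The non-blood classes differed in which Hox genes they held. The heat map of the mean level of each gene in each class shows 3 groups by eye, namely mesenchymal and muscle cells with *Hoxa9*, *Hoxa10* and *Hoxc10* all among their 5 highest genes, endothelial and glial cells with *Hoxb7* and *Hoxd8* among theirs, and blood cells, in which no gene of the macrophage-like class passed a mean of 1.42 CPM. Mast-like cells, with 72 Hox UMIs in all, also had *Hoxa9*, *Hoxa10* and *Hoxc10* among their 5 highest genes. Their low level, not this order, set them apart. Over the 39 genes, the correlation of log2(mean CPM + 1) with FAP-like cells was 0.960 for chondrocyte-like, 0.957 for tenocyte-like, 0.902 for myogenic-like and 0.825 for smooth muscle or pericyte-like cells, but 0.228 for glial-like and 0.121 for endothelial-like cells. With FAP-like cells it was 0.702 for mast-like and 0.437 for macrophage-like cells. Endothelial- and glial-like cells had 0.764 with each other. These are correlations across genes that come from the same libraries, given as a description.

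**Figure D1:**
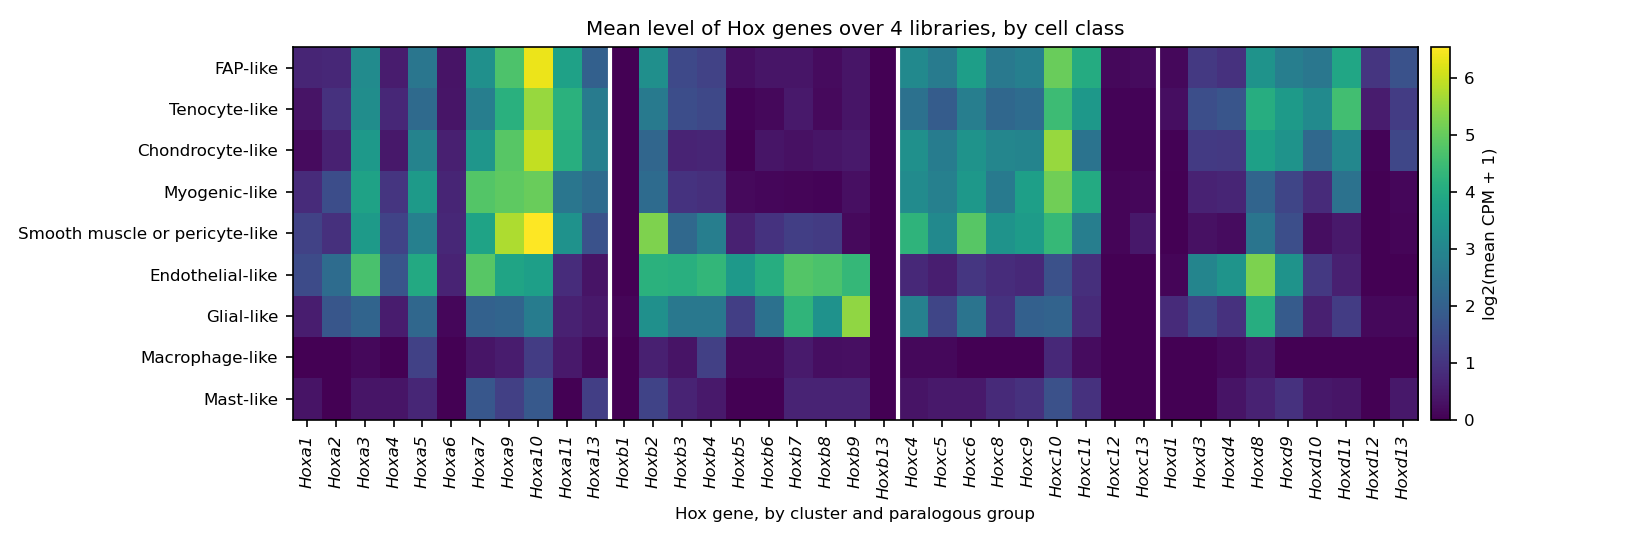
Heat map of log2(mean CPM + 1) over the 4 libraries for the 39 Hox genes (columns, in cluster order) in 9 cell classes (rows). FAP-, tenocyte-, chondrocyte- and myogenic-like cells have high values at Hoxa9, Hoxa10 and Hoxc10, endothelial-like cells from Hoxb2 to Hoxb9 and at Hoxd8, and macrophage-like cells low values throughout.

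The clusters took different shares of the Hox UMIs. In FAP-like cells 51.6% of them came from *Hoxa*, 4.69% from *Hoxb*, 29.8% from *Hoxc* and 13.9% from *Hoxd*, whereas in endothelial-like cells the shares were 31.5%, 46.5%, 2.02% and 20.0%, and in glial-like cells 14.1%, 58.4%, 12.7% and 14.8% (means of 4 libraries). Myogenic-like cells had 53.6% from *Hoxa* and 38.9% from *Hoxc*, with 4.84% from *Hoxd*. Genes of groups 9 to 13, the posterior ones, made up 72.1% of Hox UMIs in FAP-like, 71.0% in tenocyte-like, 70.6% in chondrocyte-like, 59.2% in myogenic-like, 56.2% in smooth muscle or pericyte-like, 39.6% in glial-like and 18.6% in endothelial-like cells.

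Of the connective tissue classes, FAP-like cells were led by *Hoxa10*, a gene of upper hindlimb patterning, with 75.9 and 89.3 CPM in WT and 85.7 and 72.4 in KO. *Hoxc10*, a hindlimb gene, followed with 28.7, 35.8, 37.1 and 27.5 CPM, and *Hoxa9* with 24.3, 25.8, 24.6 and 27.5 (in the order WT 1, WT 2, KO 1, KO 2, as below). Both lay far below *Hoxa10* in every library, and *Hoxc10* was above *Hoxa9* except in KO 2, where they were level. *Hoxc11* gave 12.5, 18.4, 16.0 and 14 CPM and *Hoxd11*, which patterns the lower leg with *Hoxa11*, 16.6, 16.7, 11 and 10.8. *Hoxa13* and *Hoxd13*, the genes of the autopod, were low, at means of 2.99 and 2.12 CPM. At the anterior end of the *Hoxb* cluster only *Hoxb2* passed 5 CPM (mean 8.65), and *Hoxb5* to *Hoxb9* together came to 1.21.

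Tenocyte-like cells had less *Hoxa10* and more of the *Hoxd* genes. *Hoxd11* read 24.8, 28.8, 24.0 and 14.1 CPM, against 16.6, 16.7, 11 and 10.8 in FAP-like cells of the same libraries, and was higher in each library. In the edgeR quasi-likelihood test with the library as a block, 29 of the 39 genes passed the filter on low counts and 8 were higher in tenocyte-like than in FAP-like cells and 11 lower (adjusted p under 0.05), while over all 15289 genes tested 23% were higher and 30.5% lower. *Hoxd9* was higher by 0.87 on the log2 scale (SE 0.18, adjusted p = 0.000144), *Hoxd8* by 0.79 (SE 0.12, adjusted p = 4.82e-07) and *Hoxd11* by 0.75 (SE 0.15, adjusted p = 9.22e-05). *Hoxa11* was higher by 0.47 (SE 0.13, adjusted p = 0.00405), but its direction turned where Hox genes were left in the clustering and where expression was centred within libraries. *Hoxc6*, *Hoxa10*, *Hoxa9* and *Hoxc10* were lower, by -0.96, -0.81, -0.58 and -0.53.

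Chondrocyte-like cells had the profile of FAP-like cells with less *Hoxc11* and *Hoxd11*. *Hoxa10* gave 55.6, 64.3, 67.1 and 55.8 CPM, *Hoxc10* 45.3, 41.0, 65.1 and 32.4 and *Hoxa9* 28.3, 28.5, 26.3 and 29.1. KO replicate 1, which had 208 of the 2455 chondrocyte-like cells, was highest for *Hoxc10*. Against FAP-like cells 5 Hox genes were higher (25.7% of all genes) and 9 lower (35.3%). *Hoxc11* fell most, by -1.68 on the log2 scale (SE 0.17, adjusted p = 1.74e-10), followed by *Hoxd11* (-1.08, SE 0.20, adjusted p = 2.48e-05), *Hoxc6* (-0.56) and *Hoxa10* (-0.51, SE 0.08, adjusted p = 6.48e-07). *Hoxa3*, *Hoxa11* and *Hoxc10* were higher by 0.37, 0.35 and 0.33. *Hoxa13* was uneven between libraries, with 4.55, 13.2, 0 and 7.06 CPM.

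Myogenic-like cells, which come from somites, shared *Hoxc10*, *Hoxa9* and *Hoxa10* with the connective tissue but had them at like levels, and added *Hoxa7*. *Hoxc10* read 32.1, 36.1, 36.8 and 31.0 CPM and *Hoxa10* 32.0, 32.8, 31.7 and 33.0, which overlapped. *Hoxa7*, a gene of the thoracic region, gave 28.2, 24.8, 25.7 and 29.6 CPM, against 9.21, 7.0, 7.73 and 11.4 in FAP-like cells. The ranges of the 2 classes were far apart for *Hoxa7*. Against FAP-like cells 5 Hox genes were higher (32.3% of all genes) and 11 lower (47.2%): *Hoxa7* by 1.59 (SE 0.10, adjusted p = 2.9e-16), *Hoxa5* by 1.10 (SE 0.15, adjusted p = 4.49e-08), *Hoxc9* by 0.94 and *Hoxa3* by 0.64 on the log2 scale among the higher ones, and *Hoxd11* (-1.62, SE 0.16, adjusted p = 5.48e-11), *Hoxa10* (-1.34, SE 0.07, adjusted p = 1.6e-18) and *Hoxa11* (-1.33, SE 0.13, adjusted p = 6.08e-11) among the lower ones. Leaving out a library gave 6 to 10 higher genes, 10 of them without KO replicate 1. *Hoxd12* had 0 UMIs of 70173304 in myogenic-like cells, so that it was at least 24.0-fold higher in FAP-like cells when set against 3 counts.

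Smooth muscle or pericyte-like cells had the highest summed level. Set against FAP-like cells, they had *Hoxa9*, *Hoxb2* and *Hoxc4* raised and *Hoxd11* nearly missing. Over the 39 genes their profile correlated more with that of myogenic-like cells (0.868) than with that of FAP-like cells (0.825). *Hoxa10* read 106, 93.5, 88.9 and 83.3 CPM, *Hoxa9* 59.2, 54.1, 47.5 and 51.3 and *Hoxb2*, an anterior gene, 33.4, 29.5, 35.1 and 53.3. *Hoxb2* lay above its FAP-like values (8.18, 5.20, 7.61 and 13.6) in every library, and in both classes KO replicate 2 was highest. Against FAP-like cells 13 Hox genes were higher (26.8% of all genes) and 9 lower (38.9%). *Hoxb2* was higher by 2.07 (SE 0.16, adjusted p = 2.09e-13), *Hoxc4* by 1.18 (SE 0.12, adjusted p = 5.23e-11) and *Hoxc6* by 1.15 (SE 0.15, adjusted p = 3.32e-08). *Hoxd11* had 6 UMIs in all and was lower by -5.32 (SE 0.44, adjusted p = 2.27e-12), and *Hoxc11* by -1.42 (SE 0.18, adjusted p = 1.03e-08). A sub-cluster of 193 cells, which was led by *Hpse2*, *P2rx1*, *Ntrk3* and *Pi15*, held 346, 229, 268 and 191 CPM of *Hoxa10*, against 44.3, 59.9, 40.5 and 39.6 in the sub-cluster of 721 cells, and 13.8, 2.29, 11.4 and 25.3 CPM of *Hoxb2* against 38.1, 31.9, 44.6 and 53.9. The sub-clusters were formed without Hox genes, and the pair was chosen after their values were seen.

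Endothelial-like cells had a code of their own, with *Hoxd8* first and the whole run of *Hoxb2* to *Hoxb9*. *Hoxd8* read 37.2, 37.5, 37.0 and 36.6 CPM (SD 0.406), and *Hoxa7* 24.4, 28.1, 34.9 and 23.3. *Hoxb7* gave 29.1, 30.2, 28.8 and 19.7 CPM and *Hoxb8* 25.3, 34.8, 22.7 and 17.7. *Hoxb8* and *Hoxb7* were almost absent from FAP-like cells, where all libraries together held 28 and 57 UMIs. Against FAP-like cells 16 of 29 Hox genes were higher (30.1% of all genes) and 13 lower (41.5%), so that every Hox gene tested was called one way or the other. *Hoxb8* was higher by 7.31 on the log2 scale (SE 0.30, adjusted p = 1.32e-21), *Hoxb7* by 6.46 (SE 0.29, adjusted p = 1.52e-20), *Hoxb9* by 5.90 (SE 0.23, adjusted p = 4.62e-22) and *Hoxb5* by 5.81 (SE 0.33, adjusted p = 1.74e-15). *Hoxc10* was lower by -4.03 (SE 0.19, adjusted p = 8.55e-20), *Hoxd11* by -4.85 (SE 0.44, adjusted p = 1.60e-11), *Hoxa11* by -3.94 and *Hoxc11* by -4.25. Without the sub-cluster of 131 endothelial-like cells that held connective tissue markers, *Hoxc10* dropped from 2.08 to 0.0696 CPM (1 UMI) and the summed *Hoxc* cluster from 6.58 to 1.05, while *Hoxa10* went from 12.0 to 8.29.

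The arterial genes *Gja5* and *Bmx* were among those leading a sub-cluster of 203 endothelial-like cells, and it held more of the *Hoxd* genes than the sub-cluster of 582 cells. *Hoxd8* was 65.4, 82.9, 56.2 and 72.7 CPM there, against 29.0, 29.3, 33.8 and 28.9, and *Hoxd4* 26.5, 23.1, 26.4 and 17.5 against 9.19, 9.52, 6.89 and 6.73. *Hoxb8* and *Hoxb9* overlapped between these sub-clusters. Against smooth muscle or pericyte-like cells, the other class of the vessel wall, endothelial-like cells had 16 higher Hox genes (28.3% of all genes) and 12 lower (30%). *Hoxb9* was higher by 7.26 (SE 0.45, adjusted p = 3.99e-16), whereas *Hoxc6* (-4.71, SE 0.34, adjusted p = 1.54e-13) and *Hoxc4* (-4.70, SE 0.28, adjusted p = 1.63e-16) were lower.

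Glial-like cells were led by *Hoxb9* with 38.0, 51.4, 35.4 and 47.4 CPM. *Hoxb7* followed with 16.9, 19.2, 18.6 and 18.9 CPM, *Hoxd8* with 15.7, 15.2, 16.8 and 16.6 and *Hoxb8* with 7.33, 9.60, 7.91 and 11.6. *Hoxb9*, a posterior gene of the *Hoxb* cluster, was thus above *Hoxb8*, its neighbour, in every library, whereas in endothelial-like cells *Hoxb8* was above *Hoxb9*. Against FAP-like cells 9 Hox genes were higher (31.1% of all genes) and 17 lower (40.9%). *Hoxb9* was higher by 6.96 (SE 0.21, adjusted p = 3.96e-25), *Hoxb7* by 5.84 (SE 0.28, adjusted p = 2.89e-19) and *Hoxd8* by 0.67 (SE 0.11, adjusted p = 3.05e-06). *Hoxa10* was lower by -3.91 (SE 0.11, adjusted p = 4.58e-26), *Hoxa11* by -4.70 (SE 0.31, adjusted p = 8.87e-15), *Hoxc11* by -4.44 and *Hoxd11* by -3.57. Without the 116 glial-like cells with connective tissue markers *Hoxa10* went from 5.77 to 2.31 CPM and *Hoxc10* from 3.23 to 1.76. The part of the remaining connective tissue markers in these values was not tested.

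Within glial-like cells, a sub-cluster of 322 cells led by *Syt1* and *Gpr17* had 97.4, 104, 79.3 and 84.4 CPM of *Hoxb9*, whereas a sub-cluster of 216 cells led by the myelination genes *Ncmap*, *Pmp2* and *Gldn* had 17.7, 18.0, 11.2 and 18.3. The connective tissue markers summed to 1102 to 1690 CPM in the former and 6849 to 9016 in the latter, and their part in this difference was not tested. *Hoxb7* was alike in these sub-clusters, at means of 16.3 to 22.9 CPM. Both pairs were chosen after their values were seen. Myogenic- against glial-like cells gave 15 higher Hox genes (32.4% of all genes) and 10 lower (39%). *Hoxc11* was higher in myogenic-like cells by 4.39 (SE 0.28, adjusted p = 3.25e-16) and *Hoxc10* by 3.51 (SE 0.15, adjusted p = 8.97e-21), and *Hoxb7* lower by -7.70 (SE 0.41, adjusted p = 4.4e-18) and *Hoxb9* by -7.56 (SE 0.26, adjusted p = 1.33e-23).

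**Figure D2:**
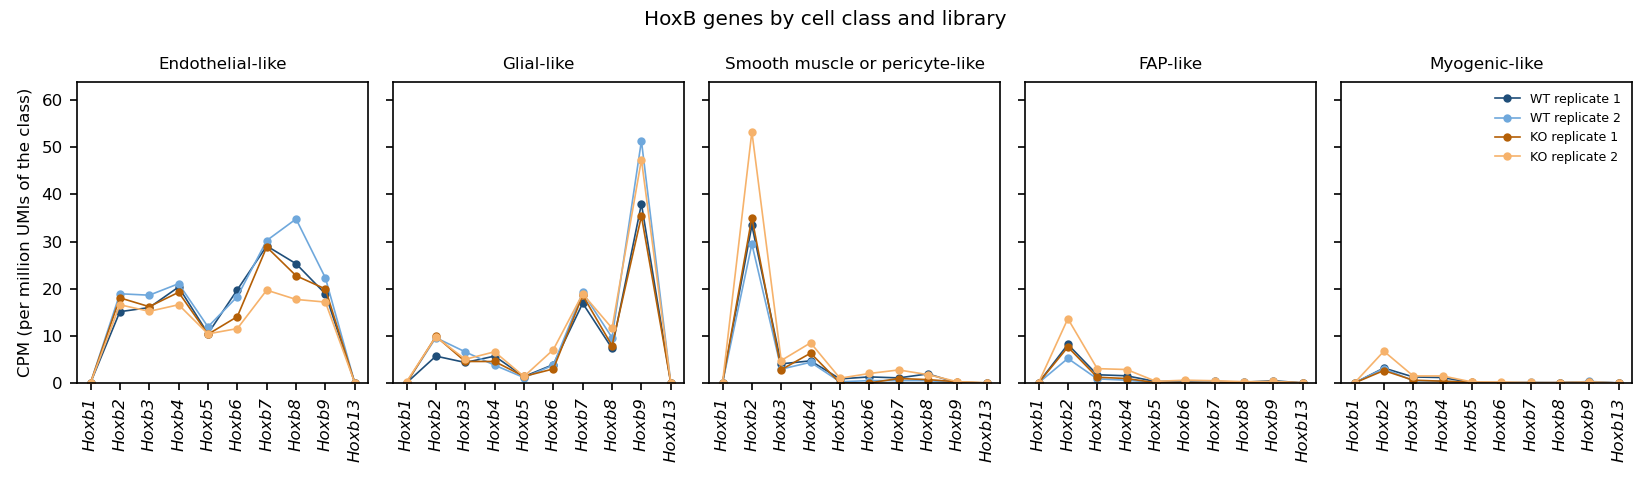
Level in CPM of the Hoxb genes along the cluster (horizontal axis, from the anterior to the posterior gene) in each of the 4 libraries, in 5 panels, 1 per cell class. The curves of the endothelial- and glial-like classes rise toward Hoxb7 to Hoxb9, with glial-like cells peaking at Hoxb9, whereas those of the other classes stay near 0 there.

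Summed, *Hoxb5* to *Hoxb9* came to 103, 117, 95.9 and 76.5 CPM in endothelial-like and 67.5, 85.0, 66.2 and 86.3 in glial-like cells, against means of 4.11 in smooth muscle or pericyte-like, 1.21 in FAP-like, 0.968 in macrophage-like and 0.524 in myogenic-like cells. At least 1 UMI of these 5 genes was found in 52.1% of endothelial-like (693 of 1329) and 47.6% of glial-like cells (875 of 1838), but in 0.837% of macrophage-like, 1.18% of FAP-like and 0.491% of myogenic-like cells, at median depths of 9288, 10794.5, 10494, 10421 and 9913 UMIs. *Hoxa10* or *Hoxc10* was found in 61.8% of FAP-like and 43.0% of myogenic-like cells, 11.2% of endothelial-like, 7.24% of glial-like and 1.99% of macrophage-like cells. *Hoxa10* or *Hoxc10* occurred in 12.8% of the endothelial-like cells with a *Hoxb5* to *Hoxb9* UMI and in 9.43% of the others. These shares were not thinned. With cells thinned to 2000 UMIs, *Hoxb9* alone was found in 7.85% of glial-like cells (144 of 1835; 6.66% to 9.17%), 4.12% of endothelial-like (54 of 1312; 3.11% to 5.34%), 0.0745% of myogenic-like and 0 of 953 macrophage-like cells (exact upper limit 0.386%, or 0.315% by the rule of 3 counts; both limit cells with a UMI, not cells that express the gene).

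The blood cells gave the lowest levels, beside which other low levels can be set. Whether their Hox UMIs are background or transcripts of their own was not tested. In macrophage-like cells 0 of the 29 genes tested were higher than in FAP-like cells (33.6% of all genes were) and 23 lower (44.1%), with *Hoxc11* at -6.18 (SE 0.48) and *Hoxa9* at -5.98 (SE 0.34, adjusted p = 1.49e-17). In mast-like cells 0 were higher (25.3%) and 19 lower (38.9%), *Hoxa10* by -4.55 (SE 0.26, adjusted p = 2.9e-17). *Hoxd11* had 0 UMIs in macrophage-like cells and was at least 49.0-fold higher in FAP-like cells, when 3 counts over the class were put in its place. Likewise, *Hoxc6* was at least 41.9-fold and *Hoxc9* at least 21.8-fold higher. *Hoxb1* and *Hoxb13* had 1 UMI each in the whole data, *Hoxc12* 32, *Hoxc13* 46 and *Hoxd1* 47, and none of these 5 passed the filter on low counts. Some counts are uncertain because the annotated genes overlap on the same strand, namely *Hoxc5* with *Hoxc10*, *Hoxc9*, *Hoxc8* and *Hoxc6*, *Hoxa3* with *Hoxa4*, *Hoxa5* and *Hoxa6*, and *Hoxd3* with *Hoxd4*.

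Within the myogenic-like cells, 12 of the 17 Hox genes that could be tested were lower in myoblast-like cells than in progenitor-like cells, the stage named from markers such as *Pax7*. Of the 6722 cells, 3414 were progenitor-like, 1323 myoblast-like and 100 myotube-like, and 1885 cycling cells had no stage. *Hoxc10* fell from 34.1, 37.5, 35.6 and 31.3 CPM in progenitor-like cells to 13.1, 17.4, 11.8 and 13.5 in myoblast-like cells. *Hoxa3* went from 16.5, 14.8, 15.1 and 13.9 to 3.2, 4.55, 4.01 and 8.56. *Hoxc6* read 14.4, 15.7, 14.7 and 10.3 and then 5.76, 5.69, 4.81 and 3.91. The stages did not overlap for any of these 3 genes. The 12 lower genes compare with 30.8% of the 11627 genes tested, and the 1 higher gene with 30.4%. *Hoxa3* fell by 1.40 (SE 0.22, adjusted p = 4.75e-06), *Hoxc6* by 1.31 (SE 0.19, adjusted p = 1.32e-06), *Hoxc10* by 1.18 (SE 0.14, adjusted p = 3.54e-08) and *Hoxc11* by 0.83 (SE 0.18, adjusted p = 0.000233) on the log2 scale. The others called lower were *Hoxa5*, *Hoxa9*, *Hoxa10*, *Hoxb2*, *Hoxc4*, *Hoxc5*, *Hoxc8* and *Hoxd11*. *Hoxa7* was the one called higher, by 0.31 (SE 0.12, adjusted p = 0.0253), with 31.9, 23.6, 24.0 and 28.2 CPM in progenitor-like and 28.2, 31.3, 29.1 and 32.0 in myoblast-like cells, which overlap, and it lost the call under several alternatives and without WT replicate 2, KO replicate 1 or KO replicate 2. The summed connective tissue markers were 869 to 949 CPM in progenitor-like and 297 to 342 in myoblast-like cells, and their part in these values was not tested.

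**Figure D3:**
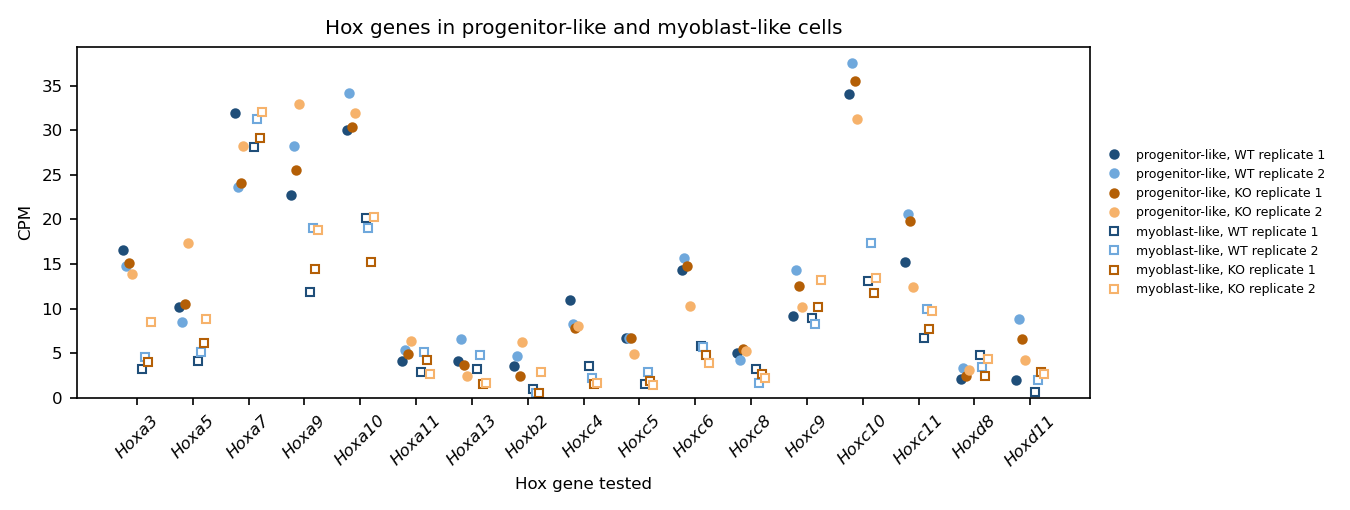
CPM of the 17 Hox genes that passed the filter, in progenitor-like (filled) and myoblast-like cells (open), 1 point per library. Progenitor-like points lie above myoblast-like points for Hoxc10, Hoxa3 and Hoxc6, and the points overlap for Hoxa7.

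Genes that act with Hox proteins, or that mark the limb field, were read beside them. *Meis2*, whose product forms complexes with Hox proteins on DNA, was at a mean of 117 CPM in FAP-like, 12.7 in endothelial-like and 6.21 in myogenic-like cells, and *Pbx3*, of another family of Hox partners, at 162 in myogenic-like and 62.8 in FAP-like cells. *Meis1* was 4.41 CPM in endothelial-like and 75.7 in FAP-like cells. All 9 limb field genes tested were lower in endothelial-, glial-, myogenic-, smooth muscle or pericyte-, macrophage- and mast-like than in FAP-like cells. Of the 11 listed long non-coding RNAs of the Hox clusters 6 were tested. In endothelial-like cells 5 were higher and 1 lower, with *Hotairm1* at 17.8 CPM against 2.04 in FAP-like cells and *Hoxaas3* at 20.5 against 1.59, both transcribed from the *Hoxa* cluster. *Hotair*, of the *Hoxc* cluster, was 1.18 CPM in FAP-like and 0 in endothelial-like cells.

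Both forelimb and hindlimb field genes were found in FAP-like cells, although the tissue is labelled as leg muscles. *Tbx5*, the forelimb gene, read 14.7, 12.1, 13.7 and 15.3 CPM, and *Pitx1*, which with *Tbx4* sets hindlimb identity, 43.0, 55.5, 41.5 and 43.7. A *Tbx5* UMI was found in 2120 FAP-like cells (12.7%, 10.5%, 11% and 13.1% by library), a *Pitx1* or *Tbx4* UMI in 6599 (36.9%), and both in 271. In macrophage-like cells 2 of 956 held *Tbx5* (0.209%). *Pitx1* or *Tbx4* was present in 12.8% of the FAP-like cells with *Tbx5* and in 40.1% of those without, and the order held in each library (15.3% and 38.8%, 16.1% and 50.4%, 14.2% and 36.5%, and 7.45% and 36.8%). In tenocyte-like cells these shares were 10.9% and 34.3%, and in chondrocyte-like cells 47.0% and 60.5%. The chondrocyte-like order turned in WT 1 (51.2% and 50.8%) and WT 2 (90.9% and 70.5%), with 43 and 33 cells with *Tbx5*. The FAP-like cells with *Tbx5* only (1849) and those with *Pitx1* or *Tbx4* only (6328) had nearly the same median depth, 11179 and 11238 UMIs. They were picked by these genes after their values were seen, and what follows is a description without a test.

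The Hox code of these cells differed most in *Hoxc*. Cells with *Tbx5* only held 6.99, 3.80, 7.77 and 2.71 CPM of *Hoxc10*, against 42.9, 44.1, 51.8 and 47.5 in those with *Pitx1* or *Tbx4* only. *Hoxc11* read 1.13, 0.895, 2.59 and 0.713, against 19.7, 23.0, 22.4 and 24.2. *Hoxc9* read 1.70, 1.12, 0.199 and 0.713, against 9.34, 7.52, 9.16 and 7.55. These *Hoxc* genes, with *Hoxc5* and *Hoxc8*, and *Hoxa10* were the 6 of 27 measured Hox genes that were lower in every library without overlap (4.34% of 16045 features were). A further 8 were higher in the same way (6.26% of features), namely *Hoxa3*, *Hoxa7*, *Hoxb2*, *Hoxb3*, *Hoxb4*, *Hoxd4*, *Hoxd8* and *Hoxd9*. *Hoxb2* had 14.9, 12.3, 13.7 and 26.7 CPM, against 4.10, 1.70, 3.58 and 3.67, and *Hoxa7* 10.6, 9.84, 12.3 and 17.7, against 6.48, 6.61, 6.60 and 7.33. *Hoxa10*, by contrast, differed less, with 62.7, 65.3, 70.5 and 56.5, against 87.2, 101, 95.2 and 87.5. *Hoxd11* overlapped, with 28.3, 32.0, 18.7 and 11.3, against 12.7, 14.9, 8.48 and 13.8.

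**Figure D4:**
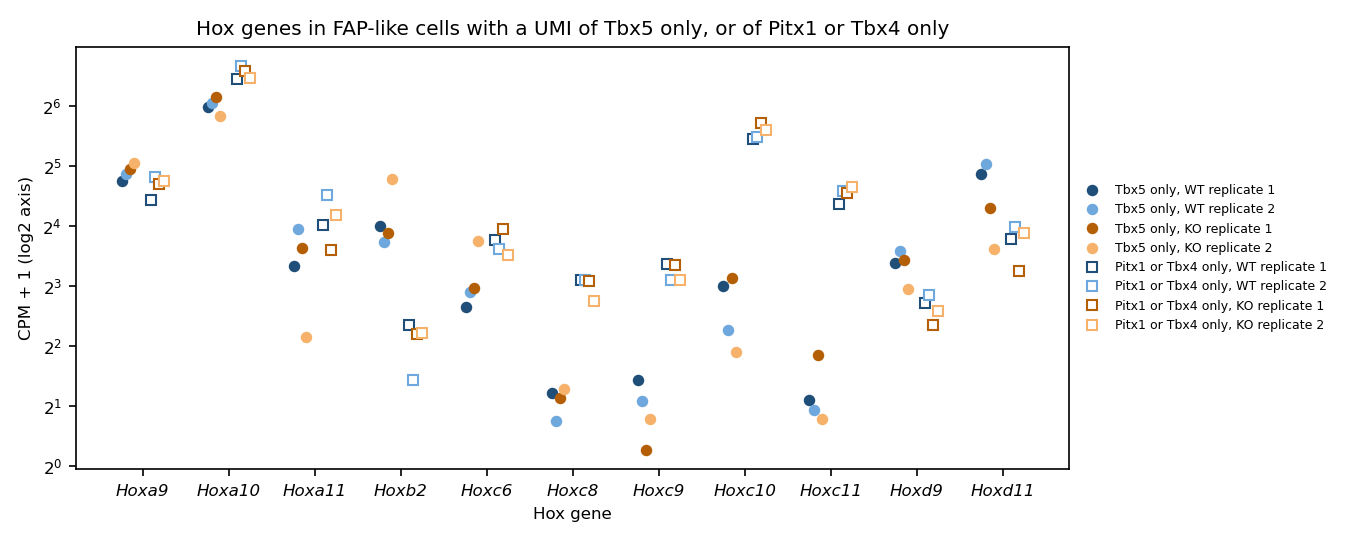
CPM + 1 on a log2 axis of 11 Hox genes in FAP-like cells with a UMI of Tbx5 only (filled) and of Pitx1 or Tbx4 only (open), 1 point per library. The filled points of Hoxc9, Hoxc10 and Hoxc11 lie below the open ones, those of Hoxb2 above, and Hoxd11 overlaps.

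Inside the FAP-like class, a sub-cluster of 2028 cells that also held 6 tenocyte markers had more *Hoxa10* and *Hoxa11* than the largest sub-cluster (8397 cells). *Hoxa10* was 105, 106, 111 and 94.9 CPM there, against 63.7, 72.7, 71.0 and 59.2, and *Hoxa11* 27.8, 31.8, 17.4 and 24.5, against 9.35, 14.2, 10.2 and 6.32. The sub-clusters did not overlap for either. The share of all features without overlap between these sub-clusters is not given here, so this is not read as a result about Hox genes. *Hoxa13* varied between libraries, with 6.39, 16.6, 0.918 and 9.76 CPM, against 1.91, 2.18, 1.47 and 0.655, so that it was higher except in KO 1. This sub-cluster made up 11.3%, 15.3%, 4.76% and 15% of the FAP-like cells of the libraries, and the part of this share in the class levels was not tested.

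No Hox gene was called between KO and WT in any class. To see whether the loss of *SYISL* changed the Hox code of limb cells, each class was tested over the 4 libraries. In FAP-like cells 33 of the 39 genes were tested and 0 called (0% of 18295 genes), although 5 were lower at an unadjusted p under 0.05 and 0 higher, and DESeq2 called 0 as well, with 1 higher and 4 lower at its own unadjusted p under 0.05. *Hoxd11* had the smallest p, at 16.6 and 16.7 CPM in WT and 11 and 10.8 in KO, a fall by 0.58 on the log2 scale (SE 0.09, unadjusted p = 0.00056, edgeR adjusted p = 1). Its genotypes do not overlap, but the share of all features without overlap is not given here. Nor is the share of all genes at an unadjusted p under 0.05, here or for the classes and the interaction below. Counts at that threshold are therefore not read as a result about Hox genes. *Hoxd13* fell by 1.10 (SE 0.22, edgeR adjusted p = 1), from 2.54 and 3.27 to 1.45 and 1.21 CPM, and *Hoxd10* by 0.58 (SE 0.15), from 6.16 and 6.0 to 4.32 and 3.64. *Hoxa10* differed by -0.03 (SE 0.11), *Hoxc10* by 0.03 (SE 0.17) and *Hoxa9* by 0.09 (SE 0.09), which are the 3 most abundant members.

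**Figure D5:**
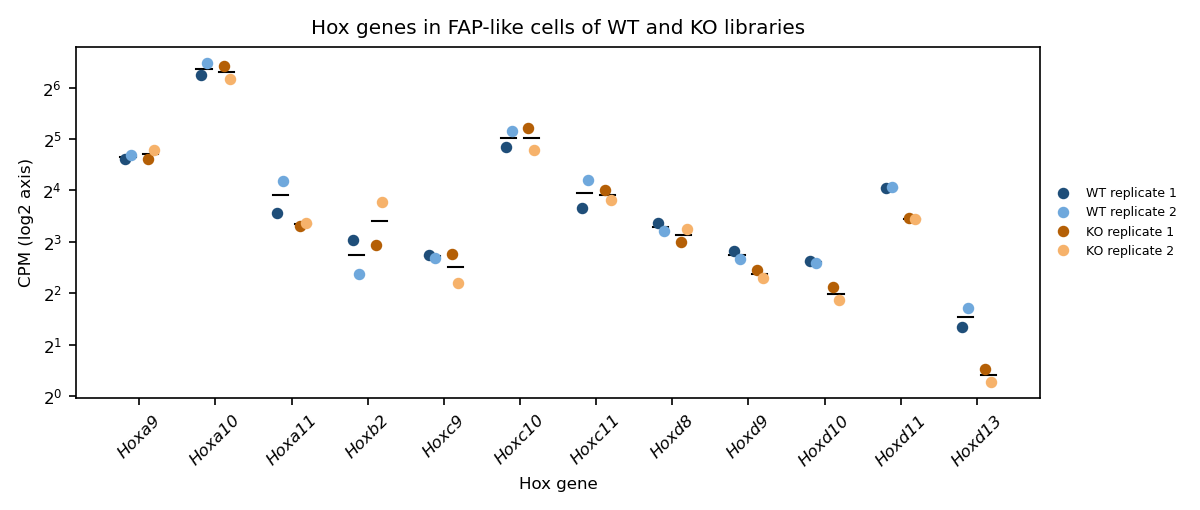
CPM on a log2 axis of 12 Hox genes in FAP-like cells, 1 point per library for WT and KO, with a bar at the mean of each genotype. Hoxd11, Hoxd13 and Hoxd10 lie lower in both KO libraries than in both WT libraries, and Hoxa10, Hoxc10 and Hoxa9 overlap.

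The other classes gave the same count. In myogenic-like cells 27 genes were tested and 0 called (0% of 14638), with 2 higher and 1 lower before adjustment at 0.05. *Hoxa2* read 1.26 and 1.27 CPM in WT and 2.26 and 2.90 in KO, a log2 difference of 1.07 (SE 0.29, edgeR adjusted p = 0.97), *Hoxa13* differed by -0.78 (SE 0.26) and *Hoxa5* by 0.46 (SE 0.16). In endothelial-like cells 18 were tested and 0 called (0.0171% of 11729), with 0 higher and 2 lower before adjustment at 0.05. *Hoxb8* differed by -0.54 (SE 0.20, edgeR adjusted p = 0.998) and *Hoxb6* by -0.55 (SE 0.21), and *Hoxb7* by -0.26. In smooth muscle or pericyte-like cells 17 were tested and 0 called (0.00815% of 12265), with 2 higher and 1 lower before adjustment at 0.05. *Hoxa11* read 11.5 and 13.4 CPM in WT and 7.48 and 4.0 in KO (-1.07, SE 0.29, edgeR adjusted p = 0.992), *Hoxb2* 33.4 and 29.5 in WT and 35.1 and 53.3 in KO (0.51, SE 0.18), and *Hoxb4* differed by 0.72 (SE 0.31). *Hoxa11* was called without a filter on low counts, and *Hoxa11* and *Hoxb2* were called without KO replicate 1.

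In chondrocyte-like cells 19 Hox genes were tested and 0 called (0% of 13526), with 1 higher at an unadjusted p under 0.05. *Hoxb2* read 1.68 and 1.85 CPM in WT and 3.29 and 6.96 in KO, a difference of 1.72 (SE 0.46) that was called without a filter on low counts, *Hoxd8* differed by 0.55 and *Hoxd9* by 0.60. In tenocyte-like cells 22 were tested and 0 called (0% of 12929), with 1 higher at an unadjusted p under 0.05. *Hoxb2* differed by 1.48 (SE 0.52), *Hoxd11* by -0.48 and *Hoxc10* by -0.30. In glial-like cells 19 were tested and 0 called (0% of 12942), none at an unadjusted p under 0.05, and *Hoxa3*, *Hoxa7* and *Hoxa2* differed by 0.78 (SE 0.36, edgeR adjusted p = 0.995), 0.86 and 0.96. DESeq2 called 0 Hox genes in each of the 7 classes. In macrophage- and mast-like cells no Hox gene passed the filter.

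*Hoxb2* was highest in KO replicate 2, the library with *Xist*, in 5 of the 7 classes in which it passed 3 CPM, and *Hoxa7* in 6 of 7. *Hoxa11* was highest in WT replicate 2 in 5 of 5 classes and *Hoxa13* in 4 of 4. Differences carried by 1 library of a genotype cannot be told apart from that library. The difference of the KO effect between myogenic- and FAP-like cells was tested as an interaction, and 0 of 32 Hox genes were called (0.0166% of 18042 genes), with 1 higher and 1 lower before adjustment at 0.05 in edgeR and 0 in DESeq2 (*Hoxc6* -0.52, SE 0.18 and *Hoxa11* 0.48, SE 0.20). The share of Hox UMIs from groups 9 to 13 was 70.4%, 77.7%, 73.1% and 67.2% in FAP-like cells, so KO minus WT was -3.98 percentage points. It was -7.53 in tenocyte-like, -6.64 in smooth muscle or pericyte-like, -4.65 in glial-like, -3.49 in chondrocyte-like, -0.994 in myogenic-like and 0.162 in endothelial-like cells. With 4 libraries there are 6 ways to assign the genotypes, so the exact permutation test, two-sided, cannot go below p = 0.33, and it gave adjusted p of 0.857 or 1 (n = 2 per genotype).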

How the data were processed

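Leg muscles of E18.5 mouse fetuses were profiled in 2 WT and 2 *SYISL* KO libraries. The authors deposited tables of UMI counts (genes by cells, not normalized), which the submitters' processing notes credit to Cell Ranger 7.2.0 and the mm10 build. Whether intronic reads were counted is not given in the sources used here. Table columns not used numbered 0. Values were counts in whole numbers. Of 41741 cells, 36969 passed a filter of 1000 to 6000 genes, 1000 to 25000 UMIs and less than 8% mitochondrial content. Doublets called by Scrublet (1.65% to 2.56% of the cells of a library) were kept, and were removed in an alternative.

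Counts were scaled to 10000 per cell, and 3000 variable genes without Hox genes (50 features left out), 30 principal components and 20 neighbours were used for Leiden clustering at resolution 0.3 (scanpy 1.11.5, igraph 0.11.9, Python 3.11.15, numpy 2.4.6, scipy 1.17.1, scikit-learn 1.9.0). Clusters were named where at least 3 markers and 40% of 1 list other than FAP were 2-fold up and in 10% of the cells. A cluster for which no list passed was named FAP-like where at least 3 FAP markers stood at 25% or more of their highest level in any cluster. All 3 FAP-like clusters were named in this way, with 10, 10 and 9 of the 10 markers at that level. Raw counts were summed per library and class with at least 50 cells in each library, 10 for stages. edgeR 4.0.16 (limma 3.58.1, R 4.3.3) fitted quasi-likelihood tests with TMM factors and filterByExpr, adjusted by Benjamini-Hochberg over all genes tested, with a threshold of 0.05. Class and stage fits had the library as a block and KO fits genotype only. SE is the log2 fold change divided by the root of F. Genes were named by a rule: the 5 highest per class, up to 4 called genes per direction and contrast with a mean of at least 10 CPM, and up to 3 per class with the smallest p between genotypes. Posterior groups are 9 to 13. The steps were tested on simulated data with 200 changed genes. The members and lists were chosen with earlier results of these data known.

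Alternatives were RLE factors, no filter, DESeq2 1.42.0, other cell filters (500 to 7500 genes, at least 500 UMIs, under 15% mitochondrial UMIs), resolution 1, Hox genes left in, centring within libraries, no library term, a replicate block, and leaving out each library. Depth limits precision to the number of Hox UMIs, from 72 in mast-like to 56055 in FAP-like cells among the classes tested. Protein sequences were not used here, and counts over the list of Hox partners are not reported here.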

Additional observations from a re-analysis of the deposited data

Results flagged for a closer look

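Some genes moved in opposite directions between genotypes in pairs of classes, with the 2 WT and 2 KO libraries of each class not overlapping; the difference between the classes was not tested for these pairs, and none of these values passed the adjusted threshold. Such opposite, non-overlapping directions were found for 26.8% of the 15087 features with at least 50 UMIs in 2 or more of these 7 classes, and for 5 of the 30 Hox genes that met that minimum (16.7%), which are the 4 below and *Hoxc4*. *Hoxb4* differed by 0.72 on the log2 scale (KO minus WT) in smooth muscle or pericyte-like cells and by -0.19 in endothelial-like cells. *Hoxc10* differed by 0.34 in glial-like and -0.30 in tenocyte-like cells. *Hoxd8* was higher in KO in tenocyte-like (0.22), chondrocyte-like (0.55), smooth muscle or pericyte-like (0.64) and glial-like cells (0.12), but stood at -0.0078, close to 0, in endothelial-like cells. *Hoxd9* differed by 0.60 in chondrocyte-like and -0.34 in FAP-like cells.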

How the results depend on the processing

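Totals of called Hox genes between classes, both directions together, stayed within 1.5 times of the reported values under the alternatives run. The exception was clustering at resolution 1, which gave 12 in tenocyte- against FAP-like cells in place of 19. Counts split by direction, between classes or stages, moved further in places, with 2 under DESeq2, 2 with Hox genes left in the clustering, and others without 1 library. *Hoxa11* in tenocyte- against FAP-like cells turned to -0.21 with Hox genes left in the clustering and -0.20 with centring, and *Hoxc10* between genotypes in tenocyte-like cells from -0.30 to 0.027 with centring; the cause was not tested. Between genotypes, 1 gene was called in chondrocyte-like cells (*Hoxb2*, 1.73) and 1 in smooth muscle or pericyte-like cells (*Hoxa11*, -1.07) without a filter on low counts. Without 1 library, calls ranged from 0 to 2 in smooth muscle or pericyte-like cells (*Hoxa11* -1.60, *Hoxb2* 0.79, without KO replicate 1) and from 0 to 1 for the interaction (*Hoxd11* 1.71, without WT replicate 2). Stage calls ranged from 11 to 13. The change of the posterior share ranged from -1.68 to 2.00 percentage points in endothelial-like and from -3.82 to 1.83 in myogenic-like cells. With the replicate block the Hox genes called between genotypes were 0 in each of 7 classes; same-numbered libraries deviated together in each of 9 classes, with correlations of 0.0584 to 0.379, but the labels do not say what a replicate number stands for, so the numbers were not used as pairs. Thinned to 1000 UMIs and unthinned, any Hox gene was in 24.1% and 89.1% of FAP-like, 21.1% and 82.2% of myogenic-like, 27.7% and 86.5% of endothelial-like, 13.3% and 69.8% of glial-like and 0.628% and 8.47% of macrophage-like cells. Removing the 3 mixed sub-clusters, chosen after seeing the data, moved no total beyond 1.5 times, but it moved 1 count split by direction. The chondrocyte-like class was not formed with Hox genes left in or with centring. With 2 libraries per genotype, a difference confined to 1 of them cannot be told apart from that library.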

Other observations

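A cluster of 1226 cells stayed without a name, with 5 smooth muscle or pericyte, 2 FAP and 2 perineurial markers, and was led by *Ccl11* and *Foxd1*. Its Hox profile held *Hoxa10* at 78.4, 79.4, 73.1 and 57.3 CPM (WT 1, WT 2, KO 1 and KO 2) and *Hoxa9* at 33.5, 29.8, 23.4 and 27.4 CPM. *Hoxa7* read 12.7, 12.2, 12.2 and 11 CPM there. The values of KO 2 were lowest for *Hoxa10* and *Hoxa7*, and the KO values lay below the WT values for *Hoxa9* and *Hoxa10*.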
